A study of Rattus norvegicus with 65 samples.

Results

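Liver expression after short treatment with Ethionine was set against that after short treatment with Dioxane and with Clofibrate. The members were chosen by title: 3 rats of the DL-Ethionine short group, 3 of the 1,4-Dioxane short group and 3 of the Clofibrate short group, 9 of the 65 rats in all. All were male Sprague-Dawley rats, 6 weeks old at the labelled age, and each liver was read on an array of its own. The labels class all 3 compounds as nongenotoxic carcinogens, which is the set they share, and name neither a dose nor a vehicle for these groups. Short is labelled 3 hours and long 72 hours, but the treatment text describes an autopsy after 24 hours, so the groups are called short and long without a time. The contrast was the mean of the Ethionine rats minus the mean of the Dioxane and Clofibrate group means, and no control entered it. The 3 control rats of the same set, whose label gives no time, are shown beside it, as are the long groups of the same compounds, which are other rats.

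Ethionine is the ethyl analog of the amino acid methionine. In rat liver it is activated to S-adenosylethionine, which is used poorly in transmethylation and ties up adenosine, so that ATP falls and ethyl groups are passed to RNA and protein. Clofibrate activates PPAR alpha, the nuclear receptor that governs peroxisomal and mitochondrial fat oxidation in hepatocytes, and Dioxane is a cyclic ether used as a solvent. The question the contrast addresses is which liver genes set the methionine analog apart from the other nongenotoxic hepatocarcinogens early in treatment. Levels below are log2 signals, on which a difference of 1 is 2-fold, and a gene was called when its adjusted p in limma was under 0.05.

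Of the 9 arrays, 3 did not resemble their groups, and every result on the short groups that follows rests in part on them. Over the 11007 genes tested, with each gene centred on the mean of the 9 rats, Ethionine rat 2 and Ethionine rat 3 resembled each other most (Pearson's r = 0.60), whereas Ethionine rat 1 had r = -0.32 and -0.39 with them and was most like Clofibrate rat 3 (r = 0.40). Dioxane rat 1 was most like Ethionine rat 2 (r = 0.19) and had r = 0.04 and -0.12 with its own group mates. Clofibrate rat 2 had r = -0.04 and -0.02 with its mates and was most like Dioxane rat 3 (r = 0.02). Ethionine rat 1 thus lay towards Clofibrate rats 1 and 3 (r = 0.27 and 0.40) and away from Dioxane rat 1 (r = -0.43), while Dioxane rat 1 lay towards the other Ethionine rats. The labels were kept as given, and whether any of these livers carries another rat's label was not tested. An exchange of labels among them would change the meaning of every contrast below that uses these short groups. The long contrast uses other rats. These correlations are across genes, are a description, and share the normalization of the set. The hepatocyte markers averaged 13.81 to 13.94 in the Ethionine rats, against 13.79 to 13.86 in the Dioxane rats, 13.77 to 13.88 in the Clofibrate rats and 13.68 to 13.70 in the control rats, so genes that define the labelled tissue were high in every rat. No gene of the 9 lists of cell type markers was called. The mean level of the Kupffer cell and macrophage markers was 9.82 to 9.93 in the Ethionine rats and 9.60 to 9.99 in the control rats. It was 9.78 to 10.08 and 10.09 to 10.25 in the Dioxane and Clofibrate rats. All 11 tested members had a difference below 0, where 53.8% of all genes did, with a median of -0.20. That median was -0.04 against Dioxane alone and -0.32 against Clofibrate alone. Members below 0 also made up 9 of 10 in the endothelial, 4 of 4 in the cholangiocyte and 3 of 3 in the exocrine pancreas list. They were 5 of 13 hepatocyte, 7 of 13 stellate cell, 4 of 10 lymphocyte and neutrophil, 2 of 5 erythroid and 1 of 4 adipose and muscle markers. In whole liver, fewer cells of a type and less RNA per cell cannot be told apart. The 3' minus 5' signal of Gapdh, a sign of RNA integrity, was 0.645 in Ethionine rat 1 and 0.42 and 0.572 in its mates, against 0.377 to 0.496 in the Dioxane rats and 0.415 to 0.658 in the Clofibrate rats. The same measure of beta-actin was 3.073 in Ethionine rat 1 and 2.6 and 2.723 in its mates. It was 2.217, 2.177 and 2.746 in Dioxane rats 1 to 3 and 2.446, 3.018 and 3.008 in Clofibrate rats 1 to 3. Whether RNA quality or cell makeup has a part in the results was not tested.

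**Figure D1:**
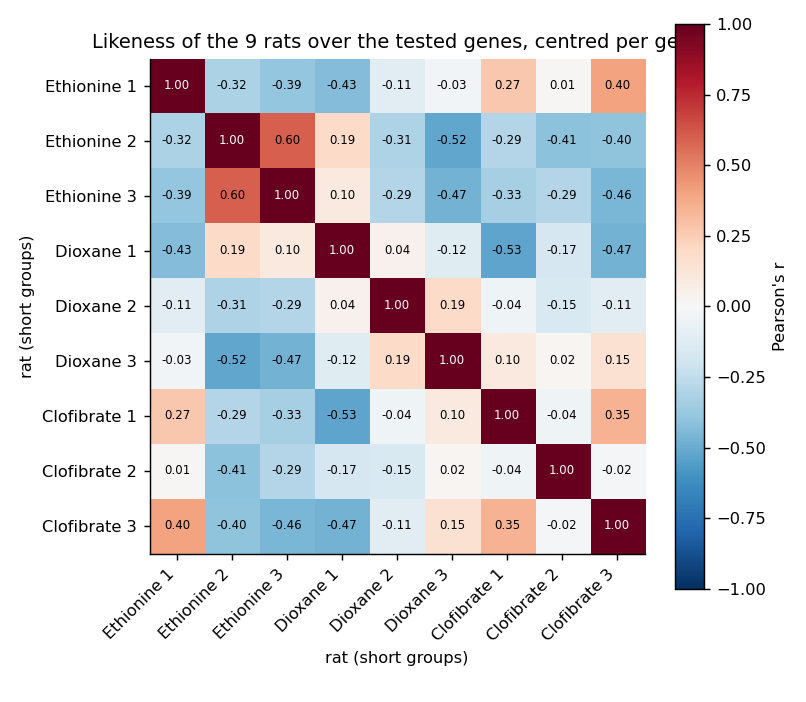
Pearson's r between each pair of the 9 rats over 11007 genes, each gene centred on its mean of the 9 rats; rows and columns are rats and the colour and printed value are r. Ethionine 2 and 3 stand together at 0.60, Ethionine 1 is at -0.32 and -0.39 with them, and Dioxane 1 has its highest value with Ethionine 2, at 0.19.

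Ethionine livers had 140 genes higher and 53 lower than the mean of the other 2 compounds (1.27% and 0.482% of the 11007 tested, 1.75% in all), and the largest differences were in histone genes. The median difference over all genes, which array normalization holds near 0, was -0.013. Without adjustment 1644 genes had p under 0.05. With only the compared groups in the fit, limma called no gene, and 1516 had an unadjusted p under 0.05. In 34 of the genes called higher and 16 of those called lower, all 3 Ethionine rats lay beyond all 6 others, whereas 568 of all tested genes (5.16%) were separated in this way. The count depended on single rats. Without Ethionine rat 1 it was 568 higher and 464 lower, and without Dioxane rat 1 it was 271 and 198. Leaving out both, a setting chosen after the data were seen, gave 637 higher and 620 lower (11.4%), among them 137 of the 140 and 52 of the 53. Both rats were picked for lying away from their groups in these data. More calls and larger differences without them therefore follow in part from that choice, and such values are a description. Leaving out Ethionine rat 2 left none higher and 1 lower (Shld2) in limma, with 877 genes at an unadjusted p under 0.05, and leaving out Ethionine rat 3 left 1 higher (Zranb1) and 1 lower (Txnip). These 3 genes were singled out after their values were seen. Of the 52 called genes examined one by one (the highest and lowest, the list examples, the histone genes and those singled out), 50 of the 51 tested lost their call without Ethionine rat 2 and 49 of 51 without Ethionine rat 3. Without Clofibrate rat 2, 23 of the 52 lost it. Leaving out Dioxane rat 2 or Dioxane rat 3 left 51 or 19 higher and 9 or 6 lower, and leaving out Clofibrate rat 2 or Clofibrate rat 3 left 67 or 84 higher and 21 or 32 lower.

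**Figure D2:**
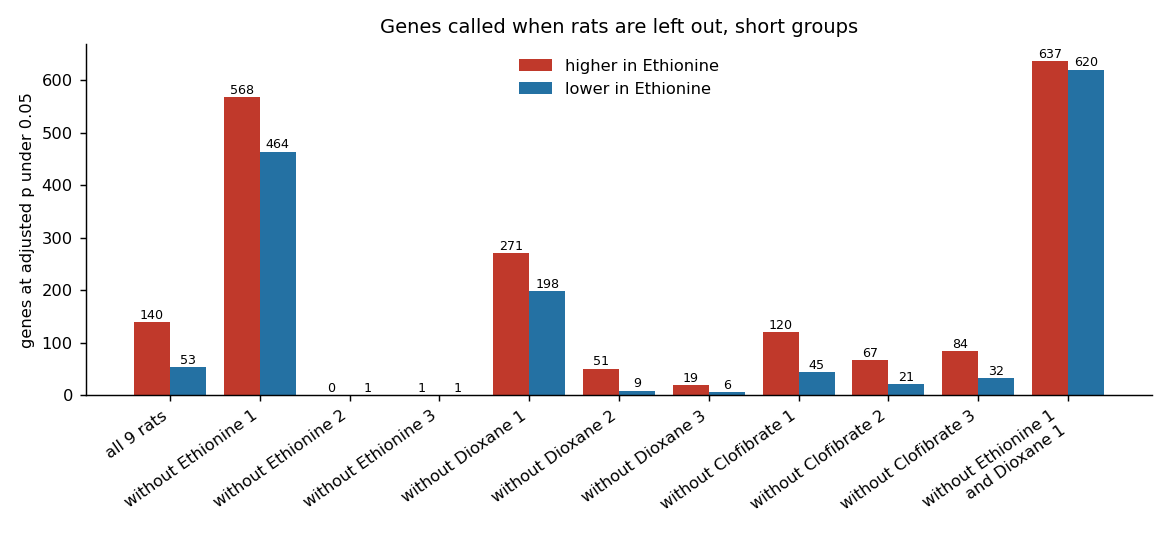
Bars give the number of genes at an adjusted p under 0.05 in the contrast of Ethionine with the mean of Dioxane and Clofibrate, higher and lower in Ethionine, with all 9 rats and with single rats or 2 rats left out. The counts run from 0 higher and 1 lower without Ethionine 2 to 637 higher and 620 lower without Ethionine 1 and Dioxane 1.

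Histones package DNA, and most of their genes lie in clusters and are made during DNA replication. H4cl1 measured 5.70, 10.63 and 10.47 in the Ethionine rats, against 8.13, 5.33 and 5.16 in the Dioxane rats, 5.44, 4.90 and 5.28 in the Clofibrate rats, and 5.42, 5.17 and 5.35 in the control rats. Ethionine rats 2 and 3 thus stood far above the rest, Ethionine rat 1 lay among the other groups, and Dioxane rat 1 lay between. The difference was 3.22 ± 0.61 (SE, adjusted p = 0.0103), and 5.32 ± 0.22 without both rats. In the main fit, each SE and adjusted p rests on a spread pooled, gene by gene, over 41 arrays. Most of these arrays are from other groups, so an SE is not the spread of the compared rats alone. With only the compared groups in the fit, the H4cl1 difference of 3.22 had an adjusted p of 0.289 in limma. H4f3, for which RefSeq lists the linker histone name Hist1h1d as a synonym, had the same order, at 5.68, 9.93 and 10.21 in the Ethionine rats, against 8.13, 5.87 and 5.35 with Dioxane, 5.21, 5.07 and 5.64 with Clofibrate and 5.54 to 5.62 in the control rats. Its difference was 2.73 ± 0.57 (adjusted p = 0.0147). H3c1, which encodes a core histone H3, was at 4.82, 8.02 and 8.34 in the Ethionine rats, against 4.64 to 5.29 in the Dioxane rats, 4.52 to 4.71 in the Clofibrate rats and 4.70 to 4.87 in the control rats, a difference of 2.26 ± 0.41 (adjusted p = 0.0084). Ethionine rat 1 again lay with the others.

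Hist4h4, a core histone H4 gene, measured 6.30, 8.33 and 8.34 in the Ethionine rats, against 6.83, 6.30 and 6.22 in the Dioxane rats, 6.15 to 6.33 in the Clofibrate rats and 6.17 to 6.29 in the control rats (difference 1.32 ± 0.26, adjusted p = 0.0137). The linker histone genes H1f2 and H1f4 were each 0.74 higher, with adjusted p of 0.0261 and 0.0322. H1f2 was at 11.84, 12.21 and 12.72 in the Ethionine rats, against 11.44 to 11.92 in the Dioxane rats, 10.69 to 11.79 in the Clofibrate rats and 11.08 to 11.18 in the control rats, so its groups overlapped through Ethionine rat 1. A list of 23 genes with a histone symbol was put together after the values were seen. Of these, 16 were tested, as the filter needed a level above log2 6.03 in at least 2 arrays. H3c1 passed it although all its Dioxane, Clofibrate and control values at short lay below that level. In H4cl1 and H4f3 these values also lay below it in every rat but Dioxane rat 1. The share called therefore depends in part on the filter and on the list, and is a description. Of the 16 tested, 6 were higher and none was lower (37.5%, against 1.75% of all genes). The other 10 were not called, among them H2az1, a replication-independent variant, at -0.05, H2ax, the variant phosphorylated at DNA breaks, at -0.09, and H2aj at 0.07. Histone genes are near-identical in sequence and H3c1 and H4cl1 overlap on chromosome 17, so probe sets for one can take signal from another and the individual values are uncertain.

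Genes with a role in histone gene transcription were also looked up after the values were seen. Hinfp, the activator of histone H4 genes, was at 7.60, 8.56 and 8.32 in the Ethionine rats, against 7.39 to 8.0 and 7.45 to 7.55 in the Dioxane and Clofibrate rats (difference 0.56 ± 0.14, adjusted p = 0.0385). Casp8ap2, which binds NPAT at histone locus bodies, was 0.82 ± 0.20 higher (adjusted p = 0.0322). Npat, the coactivator of these genes, and Slbp, which binds the histone mRNA stem-loop, had differences of 0.29 and 0.20 with adjusted p of 0.493 and 0.778.

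Promoters of called histone genes, all of them called higher, are shown where a window was found. Whether these genes moved together was not tested. RefSeq's promoter table (GRCr8) had windows for H1f2, H1f4 and H4f3. The last 140 bases before each gene start are printed 5′ to 3′, with capitals marking the CCAAT box, the TATATA letters of a TATA box and, in H1f2 and H1f4, the AAACACA letters of a known element of linker histone promoters. H1f2 lies at chr17:41820454-41820593 on the minus strand, H1f4 at chr17:41914285-41914424 on the plus strand and H4f3 at chr17:41980342-41980481 on the minus strand.
H1f2: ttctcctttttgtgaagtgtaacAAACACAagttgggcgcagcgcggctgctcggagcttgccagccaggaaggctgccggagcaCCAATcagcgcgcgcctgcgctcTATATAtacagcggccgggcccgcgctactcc
H1f4: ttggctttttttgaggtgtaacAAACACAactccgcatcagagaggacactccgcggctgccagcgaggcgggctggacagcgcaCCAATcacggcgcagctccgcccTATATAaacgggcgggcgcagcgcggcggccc
H4f3: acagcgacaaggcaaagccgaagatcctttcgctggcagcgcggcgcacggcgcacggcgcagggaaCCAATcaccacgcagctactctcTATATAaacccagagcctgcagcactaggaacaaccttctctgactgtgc
In H1f2 and H1f4, AAACACA starts at -117 and -118, CCAAT at -55 in both and TATATA at -32 in both, and in H4f3 CCAAT and TATATA start at -73 and -50. On either strand of the window from 250 bases before to 50 after a gene start, AAACACA is in 6.96%, CCAAT in 37.7% and TATATA in 6.12% of 27457 RefSeq promoters. In the 9204 promoters of tested genes the shares are 4.13%, 37.9% and 2.40% in the same order. These 3 motifs were chosen after the values were seen.

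Letters of 3 stress elements were also searched on both strands of the same windows. The amino acid response letters TGATGNAA were in 1 of 109 promoters of genes called higher (0.917%) and 2 of 45 of genes called lower (4.44%), against 2.06% of 9204 tested genes. The cyclic AMP element TGACGTCA was in 9 (8.26%) and 1 (2.22%), against 3.06%. The AP-1 letters TGANTCA were in 6 (5.50%) and 2 (4.44%), against 4.89%. A match describes the letters only.

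**Figure D3:**
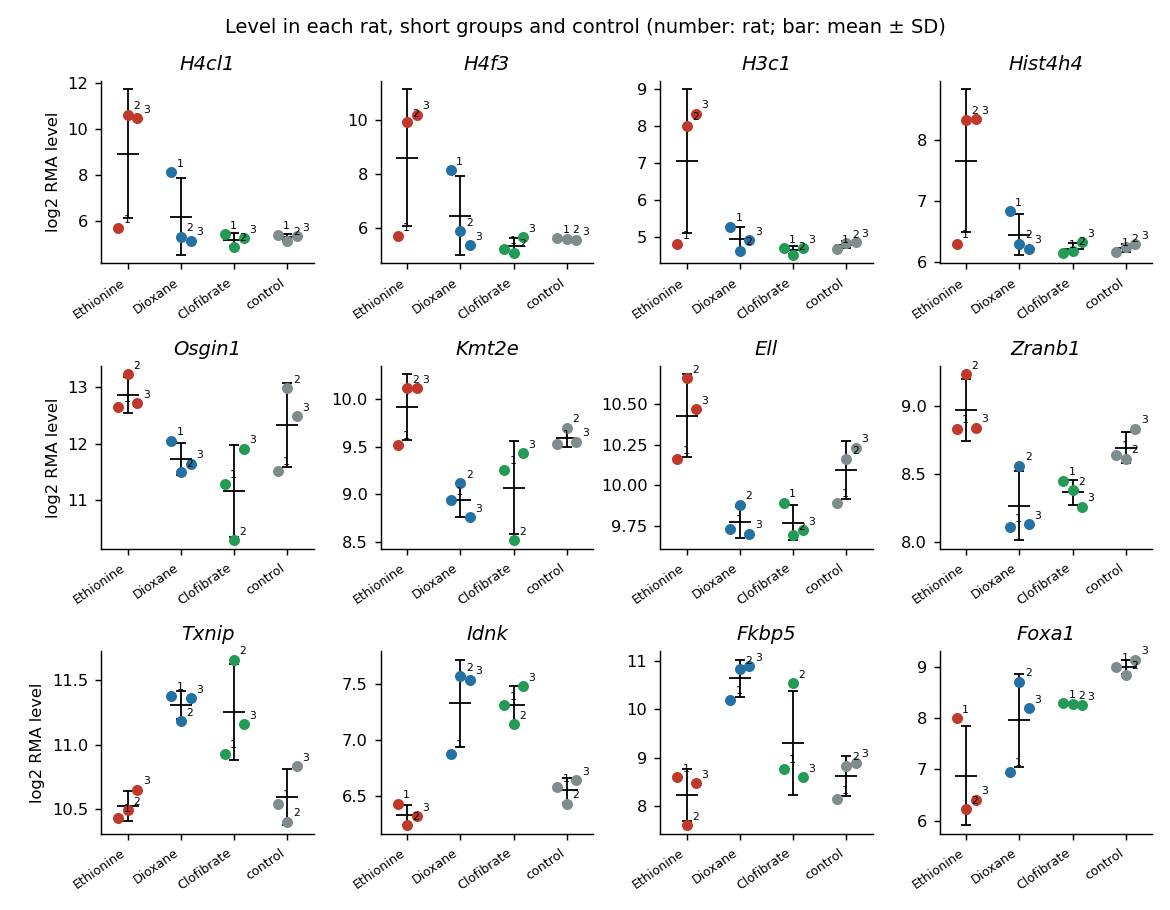
Log2 level of 12 genes in each rat, by group: Ethionine, Dioxane, Clofibrate (short) and control. Points are rats with their number and bars are mean ± SD of 3 rats. In H4cl1, H4f3, H3c1 and Hist4h4 Ethionine 2 and 3 lie above every other rat and Ethionine 1 does not, whereas in Osgin1, Kmt2e, Ell and Zranb1 all 3 Ethionine rats lie above the Dioxane and Clofibrate rats.

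In the 15 named genes whose 3 Ethionine rats all lay above all 6 others, the differences were smaller, at 0.54 to 1.41. Osgin1, an NRF2-dependent inhibitor of growth made under oxidative stress, had the highest difference. It was at 12.64, 13.22 and 12.71 in the Ethionine rats, against 12.05, 11.49 and 11.64 in the Dioxane rats and 11.29, 10.29 and 11.91 in the Clofibrate rats (difference 1.41 ± 0.31, adjusted p = 0.0204). The control rats, at 11.52, 12.98 and 12.48, spanned both. Ell, an elongation factor of RNA polymerase II, measured 10.16, 10.66 and 10.47 in the Ethionine rats, against 9.70 to 9.88 and 9.69 to 9.89 in the Dioxane and Clofibrate rats (0.66 ± 0.11, adjusted p = 0.00647). Zranb1, a deubiquitinase, was at 8.83, 9.23 and 8.84 in the Ethionine rats, against 8.11 to 8.56 and 8.26 to 8.45 (0.65 ± 0.11, adjusted p = 0.00647), and it kept its call without any single rat but Ethionine rat 2. Kmt2e, a chromatin reader of the MLL family, was 0.91 ± 0.19 higher (adjusted p = 0.0147). Trim8, a ubiquitin ligase, was 0.68 ± 0.13 higher, with Ethionine rat 1 at 7.39 and its mates at 8.12 and 8.09, against 7.08 to 7.31 in the other groups.

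The other 10 of these 15 genes had differences of 0.54 to 0.73. They were Ddah1, which breaks down methylated arginine (0.73), the nuclear receptor corepressor Nrip1 (0.70), the zinc finger gene Zfp518a (0.70), the Wnt pathway target and inhibitor Axin2 (0.69), and Asxl2, a partner of a polycomb deubiquitinase (0.63). Fam13b (0.63), the transporter-like Mfsd11 (0.58), Sugp2, a protein with splicing factor domains (0.57), the kinase Bmp2k (0.57) and the histone reader Zzz3 (0.54) completed the 15. The separation was often narrow: Mfsd11 was at 5.83 in Ethionine rat 1, against 5.81 in Dioxane rat 1, and Ddah1 was at 10.67 in Ethionine rat 2, against 10.66 in Clofibrate rat 3. Ddah1 was not called without both rats (0.54, adjusted p = 0.151).

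The 15 named genes called lower with separated rats had differences from -1.15 to -0.31. Txnip, a glucose-induced inhibitor of thioredoxin and of glucose uptake, was at 10.43, 10.49 and 10.65 in the Ethionine rats, against 11.38, 11.18 and 11.36 in the Dioxane rats and 10.93, 11.66 and 11.16 in the Clofibrate rats. Its difference was -0.75 ± 0.13 (adjusted p = 0.00647). The control rats, at 10.54, 10.40 and 10.83, lay with the Ethionine rats. Idnk, a gluconokinase, had the same placing, at 6.43, 6.24 and 6.32 in the Ethionine rats, against 6.88 to 7.57 and 7.14 to 7.48 in the Dioxane and Clofibrate rats and 6.43 to 6.64 in the control rats (-0.99 ± 0.18, adjusted p = 0.0084). N4bp2l1 had the largest difference, -1.15 ± 0.31, with Ethionine rat 1 at 8.86 only just below the lowest Clofibrate rat at 8.88 (adjusted p = 0.0464).

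Rnf8, a ubiquitin ligase at DNA breaks, was at 8.85, 8.27 and 8.47 in the Ethionine rats, against 9.21 to 9.45 and 9.10 to 9.31 in the Dioxane and Clofibrate rats and 9.17 to 9.71 in the control rats (-0.71 ± 0.16, adjusted p = 0.0205). Shld2, a shieldin subunit that protects DNA ends, had -0.55 ± 0.10 (adjusted p = 0.0084). Ptdss2, a phosphatidylserine synthase, was at -0.59, and Pigu and Pigy, subunits of the GPI anchor enzymes, were at -0.58 and -0.34. Pabpn1, a nuclear poly(A)-binding protein, was at -0.50, and the tyrosine sulfotransferase Tpst2 at -0.48. The membrane protein Stom (-0.43), Tmem80 (-0.40), the spindle augmin subunit Haus8 (-0.39), Smim14 (-0.32) and the muscle glycogen phosphorylase Pygm (-0.31) completed the 15. Stom was not called without both rats (-0.33, adjusted p = 0.143).

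Most called genes were not separated. Over the 193 called genes, Ethionine rat 1 was nearer to the mean of Ethionine rats 2 and 3 than to that of the other 5 rats in 42 genes (21.8%), against 36.3% of all genes tested, and Dioxane rat 1 was nearer to Ethionine rats 2 and 3 in 49 (25.4%, against 47.6%). These shares are a description, since the genes were called in a contrast that includes both rats. A gene in which Dioxane rat 1 lies with Ethionine rats 2 and 3 is less readily called. The lower share of Dioxane rat 1 therefore follows in part from that choice. Pop1, a protein of RNase P and RNase MRP, is an example in which Ethionine rat 1 lay with the other groups. It was at 6.16, 8.43 and 8.87 in the Ethionine rats, against 7.48, 6.25 and 5.86 in the Dioxane rats and 5.99 to 6.39 in the Clofibrate rats (1.47 ± 0.32, adjusted p = 0.0205). Lamb3, a laminin chain, was at 5.87, 7.81 and 7.75 in the Ethionine rats, against 6.58, 5.50 and 5.76 with Dioxane and 5.69 to 6.04 with Clofibrate (1.23 ± 0.24, adjusted p = 0.0125). Both were chosen after their values were seen. Zinc finger genes were also grouped after the values were seen: of 213 tested genes with Zfp or Zbtb symbols, 14 were higher and 1 was lower (7.04%, against 1.75% of all genes). Without both rats 51 were higher and 20 lower, where 5.79% of all genes were higher and 5.64% lower. Zfp143, an activator of snRNA genes, led them at 1.00 ± 0.20 (adjusted p = 0.0137), and Zfp260 was the lower one, at -0.58.

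In the lists that follow, counts stand against 1.75% of all genes called with all rats (1.27% higher and 0.482% lower). Without Ethionine rat 1 and Dioxane rat 1, 11.4% of all genes were called (5.79% higher and 5.64% lower). That setting was chosen from these data, so its counts are a description and add no support. At these list sizes, 0 or 1 called gene is near the share over all genes and is no result about a list. In the p53 list 2 of 19 genes were called, both higher, and both again split the Ethionine rats. Plk2, a kinase induced by p53, was at 9.72, 11.57 and 11.37 in the Ethionine rats, against 10.65, 9.18 and 9.42 in the Dioxane rats and 9.79 to 9.94 in the Clofibrate rats (1.09 ± 0.25, adjusted p = 0.0261). Mdm2, the ubiquitin ligase for p53, was at 8.99, 9.91 and 9.62 in the Ethionine rats, against 8.65 to 9.18 and 8.69 to 9.01 (0.65 ± 0.17, adjusted p = 0.0405). The list's median was 0.00, and Cdkn1a, the cell cycle inhibitor, was at -0.56 (adjusted p = 0.527). Without both rats 4 were higher and none was lower, where 5.79% of all genes were higher.

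In the NRF2 list 2 of 29 genes were higher, Osgin1 and Nfe2l2, which encodes NRF2 itself (0.83 ± 0.20, adjusted p = 0.0322), while the list's median was -0.06 and 21 members had values below 0. Slc7a11, the cystine transporter of the list, was at -0.95 (adjusted p = 0.0763). Heat shock genes had 1 of 16 higher, the heat shock factor Hsf2, at 10.55 to 10.65 in the Ethionine rats, against 9.95 to 10.09 and 10.03 to 10.38 in the Dioxane and Clofibrate rats (0.48 ± 0.11, adjusted p = 0.0256). Cxcl10, a chemokine in both the interferon and the NF-kappaB lists, was the one member called in each, of 27 and 22. It was at 6.28, 7.75 and 7.90 in the Ethionine rats, against 5.83 to 6.29 and 5.95 to 6.55 in the Dioxane and Clofibrate rats (1.09 ± 0.24, adjusted p = 0.0205). Wee1, a mitotic kinase under clock control, was the 1 called gene of 19 in the clock list (0.77 ± 0.20, adjusted p = 0.0447). That list had the highest median, 0.35, and 5 members called higher without both rats, where 5.79% of all genes were higher.

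Among 25 hepatocyte transcription factors, 1 was higher and 2 were lower, and the forkhead pair Foxa1 and Foxa2 went opposite ways. Foxa2 was at 9.92, 10.94 and 10.75 in the Ethionine rats, against 9.56 to 9.96 in the Dioxane rats, 8.55 to 9.43 in the Clofibrate rats and 9.41 to 10.22 in the control rats (1.08 ± 0.25, adjusted p = 0.0255). Foxa1 was at 8.0, 6.23 and 6.41 in the Ethionine rats, against 6.96, 8.71 and 8.20 in the Dioxane rats, 8.26 to 8.29 in the Clofibrate rats and 8.85 to 9.14 in the control rats (-1.24 ± 0.27, adjusted p = 0.0205). Ethionine rat 1 lay nearer to the Clofibrate rats, and Dioxane rat 1 nearer to Ethionine rats 2 and 3. The xenobiotic receptor Nr1i2 (PXR) was the other lower gene, with a difference of -0.45 ± 0.11 (adjusted p = 0.0329). None of the 18 tested targets of CAR and PXR was called, with a median of 0.07. Onecut1, the liver factor HNF6, had the highest value of the list, 1.85 ± 0.66, but did not pass (adjusted p = 0.144), since the Dioxane rats alone ran from 5.65 to 9.96.

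Ethionine enters metabolism through the methionine cycle. Of 31 tested genes of this cycle, transsulfuration and polyamines, 1 was lower and none was higher (3.23%, against 1.75% of all genes), and the median was -0.08. The called gene was Mri1 of the methionine salvage pathway, at 9.37, 8.78 and 9.02 in the Ethionine rats, against 9.35 to 9.67 in the Dioxane rats, 9.28 to 9.61 in the Clofibrate rats and 9.27 to 9.31 in the control rats (-0.43 ± 0.11, adjusted p = 0.0396). Mat1a, the liver enzyme that makes S-adenosylmethionine, was at 13.18 to 13.31 in the Ethionine rats, against 13.32 to 13.33 and 13.24 to 13.30 in the Dioxane and Clofibrate rats (-0.07 ± 0.10, adjusted p = 0.833). Mat2a, its counterpart outside hepatocytes, was at -0.22, Ahcy, which clears S-adenosylhomocysteine, at -0.06, and Bhmt, which remethylates homocysteine, at -0.43, with adjusted p from 0.424 to 0.782. Of 22 purine and pyrimidine synthesis genes none was called, the median was -0.13, and the largest difference from 0 was that of Uox, urate oxidase, at -0.30 (adjusted p = 0.0954). Of 20 histone and chromatin methyltransferases none was called, and the median was 0.12.

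Genes induced by amino acid shortage are given next. None of 21 integrated stress response genes was called, with a median of -0.24, and Atf4, Ddit3 and Trib3, central factors of the pathway, were at 0.06, 0.26 and -0.21. None of 10 serine, asparagine and proline synthesis genes was called, though 8 lay below 0 and the median, -0.56, was the lowest of all lists. Asns, asparagine synthetase, was at 10.48, 9.66 and 8.16 in the Ethionine rats, against 10.15 to 10.73 in the Dioxane rats, 10.01 to 10.73 in the Clofibrate rats and 10.02, 8.10 and 7.67 in the control rats (-0.99 ± 0.55, adjusted p = 0.413). The control rats thus spread as widely as the Ethionine rats. Mthfd2, a mitochondrial folate enzyme, was at 7.89, 6.46 and 5.93 in the Ethionine rats, against 8.11 to 8.44 and 7.65 to 8.16 in the Dioxane and Clofibrate rats and 8.30, 6.99 and 6.47 in the control rats (-1.33 ± 0.37, adjusted p = 0.0582). Without both rats, a setting chosen from these data, its difference was -1.85, which is a description and no test.

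Aminoacyl-tRNA synthetases, which charge tRNAs, had 18 of 19 members below 0, where 53.8% of all genes lay below 0, but only Yars1 was called (-0.58 ± 0.15, adjusted p = 0.0458). It was at 10.59, 9.98 and 10.00 in the Ethionine rats, against 10.73 to 10.84 and 10.37 to 11.08 in the Dioxane and Clofibrate rats and 10.35 to 10.68 in the control rats. Cars1, at -0.74 (adjusted p = 0.0888), and Sars1, at -0.41 (adjusted p = 0.0794), were next in size among the members outside the threshold. Without both rats 6 were lower, where 5.64% of all genes were lower, and the median was -0.30, against -0.19 with all rats.

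In the lipid and fuel lists the counts were near the 1.75% of all genes. None of 44 tested PPAR alpha targets was called against the mean of the 2 compounds, with a median of -0.09. Against Clofibrate alone, the PPAR alpha activator, 3 were lower and none higher, with a median of -0.25, where 0.291% of all genes were lower and their median was -0.019. That comparison called no gene without Clofibrate rat 2. Without Ethionine rat 1 and Dioxane rat 1, 5 of the 44 were lower against the mean of the 2 compounds, with a median of -0.23, where 5.64% of all genes were lower. None of 28 lipoprotein, 20 cholesterol, 21 bile acid, 37 urea cycle and amino acid breakdown or 20 insulin and glycolysis genes was called. In fatty acid synthesis 1 of 23 was lower, the acyltransferase Agpat2 (-0.52 ± 0.14, adjusted p = 0.0424). Cyp7a1, the rate-limiting enzyme of bile acid synthesis, had 1.04 ± 0.81 (adjusted p = 0.622), and in the control rats it ran from 7.53 to 12.54. In the list of fasting and glucocorticoid genes 1 of 28 was called, Fkbp5, a glucocorticoid-induced chaperone of its receptor, at -1.76 ± 0.31 (adjusted p = 0.0084). Also without a call were 31 ribosome biogenesis, 21 unfolded protein response, 27 immediate early, 16 amino acid transporter, 8 AHR, 26 acute phase, 23 growth hormone dependent and 35 proliferation genes, with medians from -0.06 to 0.05.

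**Figure D4:**
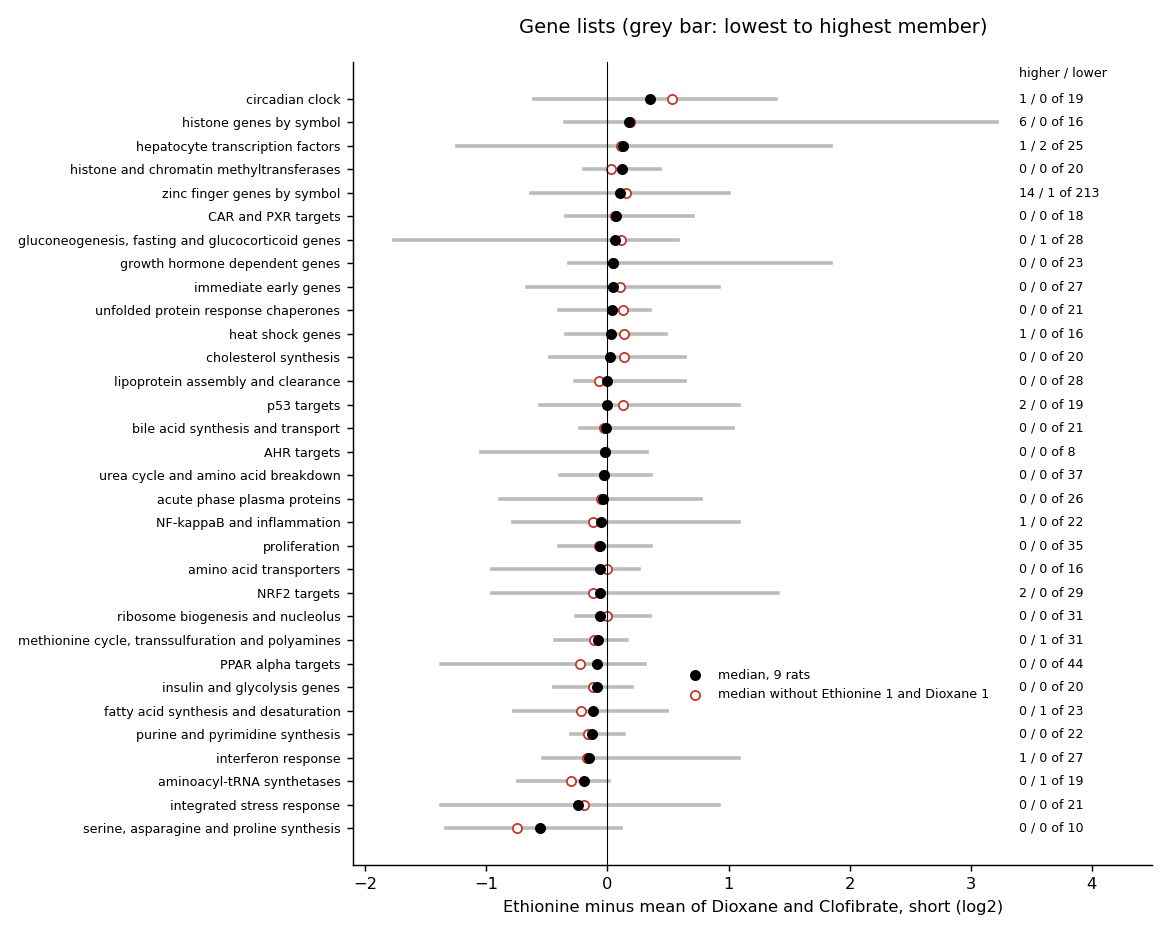
Each row is a gene list. Black points are the median difference of its tested members between Ethionine and the mean of Dioxane and Clofibrate, open red points the median without Ethionine 1 and Dioxane 1, grey bars the lowest to the highest member, and the figures at the right the members called higher and lower. Medians run from -0.56 for serine, asparagine and proline synthesis to 0.35 for the clock genes; histone genes, grouped after their values were seen, reach 3.22.

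Taken singly, each compound gave fewer calls, and the 2 comparisons share the Ethionine rats. Against Dioxane alone 62 genes were higher and 32 lower (0.854%), and against Clofibrate alone 81 were higher and 32 lower (1.03%). Between Dioxane and Clofibrate limma called no gene, although 1128 genes had an unadjusted p under 0.05. Without Ethionine rat 1 the comparison with Dioxane called 395 higher and 244 lower, without Ethionine rat 2 it called 0 and 2 and without Ethionine rat 3 it called 2 and 5. Without Dioxane rat 1 it called 115 and 84, without Dioxane rat 2 it called 17 and 8 and without Dioxane rat 3 it called 9 and 7. Dioxane against Clofibrate had 12 higher and 39 lower without Dioxane rat 3. The lowest genes against Dioxane were Fkbp5, Slc7a11, Fmo2 and Acer2. Fkbp5 was at 8.59, 7.59 and 8.47 in the Ethionine rats, against 10.20, 10.84 and 10.90 in the Dioxane rats (-2.43 ± 0.36, adjusted p = 0.00172), and against 8.77, 10.54 and 8.59 in the Clofibrate rats it did not pass (-1.08, adjusted p = 0.135). In the control rats it was at 8.14 to 8.89, below all Dioxane rats. Slc7a11 was at 5.72, 4.89 and 5.00 in the Ethionine rats, against 6.24 to 7.61 in the Dioxane rats (-1.56, adjusted p = 0.0173). Fmo2, a flavin monooxygenase, and Acer2, a ceramidase, were at -1.43 and -1.23. The highest were Zeb2, a zinc finger repressor (1.10), Rb1, the retinoblastoma protein (1.02), Kmt2e (0.97) and the polarity gene Pard6g (0.91).

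Against Clofibrate alone the highest genes were H4cl1 (3.72), H4f3 (3.30), H3c1 (2.41) and Osgin1 (1.69), each with an adjusted p of 0.0246. Without Ethionine rat 1 this comparison called 501 higher and 488 lower, and without Ethionine rat 2, Ethionine rat 3 or Clofibrate rat 2 it called none in limma, with 832, 739 and 1224 genes at an unadjusted p under 0.05. Without Clofibrate rat 1 or Clofibrate rat 3 it called 42 or 15 higher and 15 or 6 lower. The lowest were Pex11a, Foxa1, Abhd15 and Gypc. Pex11a, a PPAR alpha target of peroxisome division, was at 9.16, 9.12 and 8.09 in the Ethionine rats, against 9.36, 11.53 and 9.71 in the Clofibrate rats (-1.41, adjusted p = 0.0472). The Dioxane rats were at 8.87 to 9.36 and the control rats at 8.46 to 9.23. One Clofibrate rat, the second, thus held the highest value. Foxa1 was at -1.39, and Abhd15, a lipid-handling hydrolase, was at -1.32, with 6.54 to 7.97 in the Ethionine rats, against 8.12 to 8.97 in the Clofibrate rats. Gypc, a red cell membrane glycophorin, was at 9.39, 7.80 and 7.80 in the Ethionine rats, against 9.41 to 9.76 in the Clofibrate rats (-1.24, adjusted p = 0.0378).

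Set beside the control rats, the called genes with separated Ethionine rats fell on both sides. Of the 34 higher, the control mean was nearer to the Ethionine mean in 13 and nearer to the mean of the other compounds in 21, and of the 16 lower it was nearer to Ethionine in 7 and to the others in 9. A difference between compounds therefore does not tell which of them had moved from the control. Txnip, Idnk and Shld2 lay near the control in the Ethionine rats, and Rnf8 and Tpst2 lay near the control in the Dioxane and Clofibrate rats.

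After long treatment the same contrast, in other rats, called far more genes, 61.1% of those tested: 3821 were higher (34.7%) and 2901 lower (26.4%). The difference between the long and the short contrast itself passed the test in 46.3% of genes. Of the 140 genes higher at short, 95 were higher at long (67.9%) and 13 lower (9.29%), and they made up 2.49% of the genes higher at long. Of the 53 lower at short, 23 were lower at long (43.4%) and 13 were higher (24.5%), and those 23 were 0.793% of the genes lower at long. H4cl1, H4f3 and H3c1 were again higher, by 3.85 ± 0.61, 3.03 ± 0.57 and 4.17 ± 0.41 (adjusted p of 2.42e-06, 2.91e-05 and 2.67e-10). Of the 16 tested histone genes, a set that depends on the filter and on a list made after the values were seen, 14 were higher and 1 lower at long. Foxa1 was lower again, at -2.86 ± 0.27 (adjusted p = 1.58e-10), and Plk2 and Mdm2 were higher, by 3.25 ± 0.25 and 3.81 ± 0.17.

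Of the 15 named genes that were higher at short, 10 were higher at long and 5 were not called, among them Kmt2e at 0.03 and Zranb1 at 0.12. Of the 15 named lower genes, 4 were lower at long (Idnk, N4bp2l1, Tmem80 and Smim14), 7 were higher and 4 were not called. At long, 34.7% of all genes were higher and 26.4% lower. The count of named genes lower at long is near that share and is no result about them. Txnip was 0.89 ± 0.13 higher at long, and Tpst2 0.91 higher. Fkbp5, at -1.76 at short, had 0.00 ± 0.31 at long. Among the lists, all 31 ribosome biogenesis genes and 21 of 27 interferon genes were higher at long, where none and 1 had been at short and 34.7% of all genes were higher at long.

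**Figure D5:**
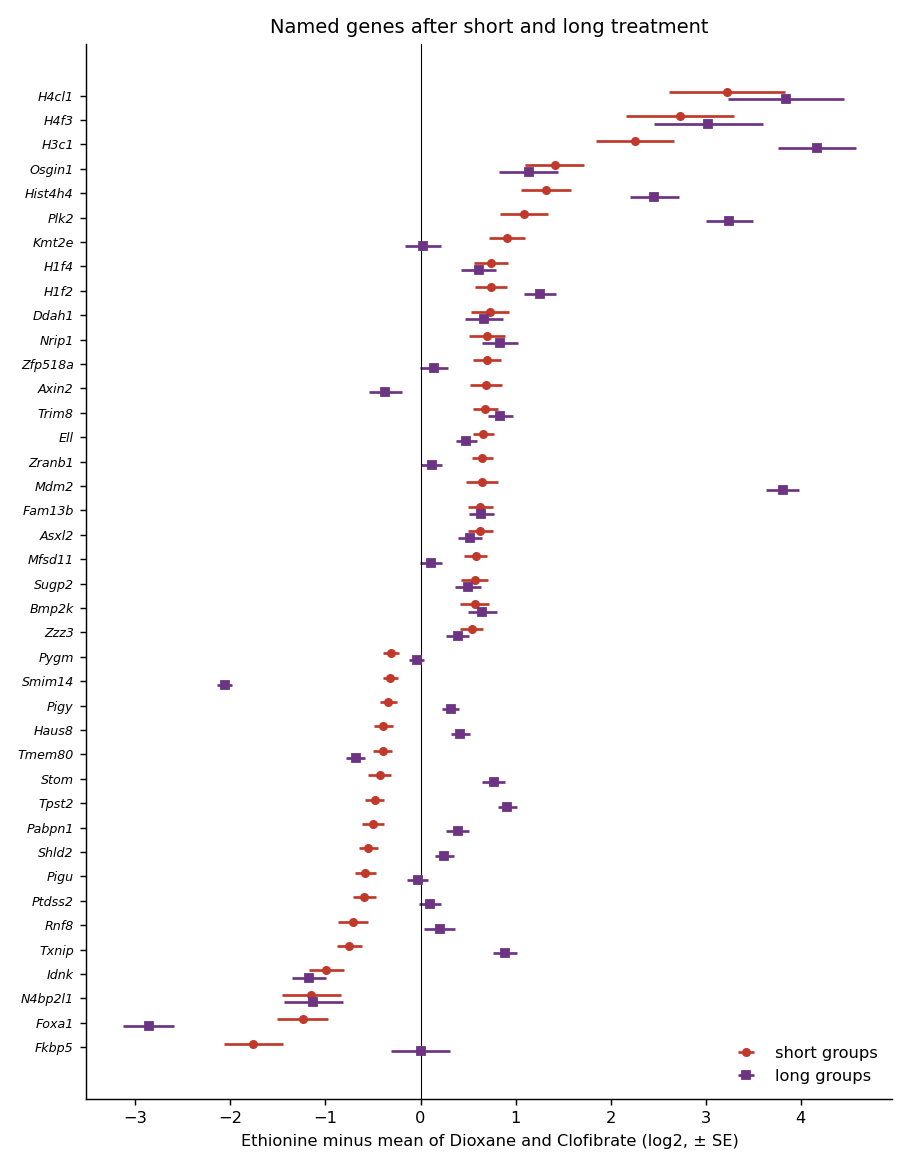
Difference between Ethionine and the mean of Dioxane and Clofibrate (log2, ± SE of the limma fit, 3 rats a group) after short (circles) and long (squares) treatment, for the genes named in the text. The histone genes, Osgin1 and Foxa1 keep their side at both durations, whereas Txnip is at -0.75 at short and 0.89 at long.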

How the data were processed

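The deposited values are log2 signals from Affymetrix arrays, which the authors standardized with RMA, per the labels' design text (version not given in the sources used here). The lowest value of an array is 3.23 to 3.30 in the nongenotoxic set, 3.33 to 3.41 among the genotoxic compounds and 2.28 to 2.40 in the test compounds' set, so the sets appear normalized apart. All the groups compared belong to the nongenotoxic set. Of 31099 probe sets, 20826 outside the 57 control probe sets had 1 gene symbol, 436 had several and 9780 none. Each of 14217 genes was read from its probe set of highest mean over all 65 arrays, and 11007 genes above log2 6.03 in at least 2 arrays were tested. Linear models with 1 mean per group were fitted to the 41 arrays of the genotoxic and nongenotoxic sets with limma 3.58.1 in R 4.3.3 (27 residual degrees of freedom, prior 4.02), with two-sided Benjamini-Hochberg adjusted p over all genes tested. On simulated data for the main contrast, 97% of 100 changes of log2 1 and 98% of 100 changes of log2 2 were recovered, with 13 false calls among 11007 genes. The simulated noise was independent between rats, with 1 pooled spread per gene and no rat that departs from its group. These rates therefore do not carry over to the short groups. Arrays have no read depth, so their number, 3 rats a group, limits the precision.

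The members and the 30 gene and 9 marker lists were chosen with earlier results of these data known. Named are the 15 highest and 15 lowest called genes whose Ethionine rats lay beyond all 6 others, leaving out symbols that are clone or locus numbers, the 4 highest and 4 lowest without overlap against each compound, the 5 highest and 5 lowest duration differences, and list members by size (all members of the stress, amino acid, methionine and purine lists could be named). Other genes are marked as chosen after their values were seen. Alternatives were the filter, the probe set rule, the variance model, quantile normalization, the arrays in the fit, a replicate block and each rat left out.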

Additional observations from a re-analysis of the deposited data

Results flagged for a closer look

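The Ethionine contrast differed between long and short treatment, by the test of that difference in limma, in 5098 of 11007 genes (46.3%). The 5 lowest differences of long minus short were those of Dao (-6.07), Gstp3 (-5.87), Mlc1 (-5.61), Fads1 (-5.57) and Fads2 (-4.93). The 5 highest were those of Pbsn (5.80), Acot1 (5.64), Cdkn1a (5.38), Hist3h2ba (5.23) and Akr1b8 (4.82). At short, Dao, which oxidises D-amino acids, had 0.16, and at long its mean level was 4.07 with Ethionine, against 10.04 with Dioxane and 9.92 with Clofibrate. Single rats stood out at short in Pbsn, at 9.03 in Dioxane rat 1 and 3.83 to 4.35 in the other 8 rats, and in Acot1, at 7.62 in Ethionine rat 1 and 9.43 in Clofibrate rat 2. Mlc1 also varied within groups, at 4.81, 8.76 and 9.17 in the Ethionine rats, against 5.61, 9.57 and 4.77 in the Dioxane rats and 4.74 to 4.90 in the Clofibrate rats.

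Genes called lower at short had a higher contrast at long in Txnip (1.65), Tpst2 (1.39), Stom (1.21), Rnf8 (0.91), Pabpn1 (0.89), Haus8 (0.81), Shld2 (0.80), Ptdss2 (0.69), Pigy (0.66), Pigu (0.54) and Pygm (0.27), and among list members in Fkbp5 (1.76), Agpat2 (1.49) and Yars1 (0.91). Smim14 (-1.74) and Foxa1 (-1.62) were further below the other compounds at long. Genes called higher at short had a lower contrast at long in Axin2 (-1.06), Kmt2e (-0.88), Zfp518a (-0.55), Zranb1 (-0.53) and Mfsd11 (-0.47), and a higher one in Mdm2 (3.16), Plk2 (2.16) and Cxcl10 (1.70). The genes called at short were chosen on the same short values that are subtracted here. A change towards 0 from short to long therefore follows in part from that choice. No group here has more than 3 rats, so single rats were not tested as outliers.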

How the results depend on the processing

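The counts of the short contrasts changed with the arrays in the fit, and not always in the same direction. For Ethionine against the mean of Dioxane and Clofibrate (140 higher, 53 lower), fitting the 21 nongenotoxic arrays gave 59 and 19, fitting the compared groups alone gave 0 and 0 in limma (1516 genes at an unadjusted p under 0.05), and a difference of at least 1 left 16 and 3. Leaving out both rats 1 (chosen after seeing the data) gave 637 and 620, and leaving out single rats gave 0 to 568 higher and 1 to 464 lower. Against Dioxane (62 and 32), the 21 arrays gave 104 higher, the compared groups 0 and 0, at least 1 left 7 and 9, both rats out gave 485 and 425, and single rats out gave 0 to 395 and 2 to 244. Against Clofibrate (81 and 32), no filter gave 49 and 20, a stricter filter 50 lower, the 21 arrays 0 and 0 (1800 unadjusted), the compared groups 0 and 0, at least 1 left 18 and 6, both rats out gave 524 and 519, and single rats out gave 0 to 501 and 0 to 488. Dioxane against Clofibrate (0 and 0) had 1 and 2 with quantile normalization, 3 and 4 in the 21 arrays, and 0 to 12 and 0 to 39 with single rats left out, the most without Dioxane rat 3. The long contrast and the duration difference stayed within 1.5 times, except that a difference of at least 1 left 920 and 722 and 909 and 717. The cause of these changes was not tested.

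No pairing of the rats by number was seen: same-numbered deviations correlated at -0.452 (Ethionine rat 1 with Dioxane rat 1) to 0.126 over genes. Of 9 matches between groups only that of Dioxane rat 3 to Clofibrate rat 3 was best at the same number. With 3 rats a group and single rats that depart from their groups, this check cannot exclude a pairing. The replicate block gave 89 higher and 27 lower in the main contrast, 37 higher against Dioxane, and 39 and 10 against Clofibrate. Of 52 named genes, all kept their direction in every setting run. They were called in this contrast and the settings share most of its rats, so this is no independent test. The call was lost by 52 with the compared groups alone, 50 of 51 without Ethionine rat 2 and 49 of 51 without Ethionine rat 3. It was lost by 37 without Dioxane rat 3, 24 in the 21 arrays and 2 without both rats.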

Other observations

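Further called genes in none of the lists were chosen after their values were seen. In each of those named here, 1 or more Ethionine rats overlapped the Dioxane and Clofibrate rats. C1qtnf3, an adipokine-like secreted protein, was at 5.51, 7.08 and 8.34 in the Ethionine rats, against 5.98, 5.55 and 5.21 in the Dioxane rats and 5.29 to 5.62 in the Clofibrate rats (1.44 ± 0.32, adjusted p = 0.0205). Cntf, a neurotrophic cytokine, was at 5.81, 7.77 and 7.85 in the Ethionine rats, against 7.27, 5.59 and 5.72 with Dioxane and 5.53 to 5.95 with Clofibrate (1.18 ± 0.31, adjusted p = 0.0405). Med1, a subunit of the Mediator complex, was 0.93 ± 0.19 higher (adjusted p = 0.0138), and Lin52, of the DREAM complex that represses cell cycle genes, was 0.88 ± 0.18 higher (adjusted p = 0.0138). Rbl2, the pocket protein of the same complex, was lower, at 9.58, 8.80 and 8.93 in the Ethionine rats, against 9.23 to 9.93 in the Dioxane rats and 9.76 to 9.80 in the Clofibrate rats (-0.59 ± 0.15, adjusted p = 0.0361). Ptgis, prostacyclin synthase, was at 9.19, 7.75 and 8.15 in the Ethionine rats, against 8.95 to 9.77 and 9.12 to 9.31 in the Dioxane and Clofibrate rats, with the control rats at 7.70 to 8.07 (-0.98 ± 0.25, adjusted p = 0.0382).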
